A study of Mus musculus with 10 samples.

Results

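The genes described here encode the nuclear part of the mitochondrial respiratory chain in mouse hearts. They were chosen by symbol alone, as the protein-coding genes whose names begin with Nduf, Uqcr, Cox4 to Cox8 or Atp5 or are Sdha, Sdhb, Sdhc or Sdhd. This gave 98 of the 78298 genes in the deposited table. By function they comprised 38 genes of complex I, 4 of complex II, 8 of complex III, 20 of complex IV, 18 of complex V, and 10 that help to assemble or regulate the complexes. Ndufa4, which carries a complex I name, was counted with complex IV, where its protein is found. Cyc1, which encodes cytochrome c1 of complex III, does not match these names and is not among the 8.

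RNA was sequenced from whole hearts of female mice on a C57BL/6J background. One group of 5 libraries is labelled as a germline knockout of p38δ, the stress-activated kinase encoded by Mapk13, and is called KO-labelled here. The other 5 libraries are labelled wild type and are called WT-labelled. All 10 libraries are from mice that had received doxorubicin at 30 mg/kg by intraperitoneal injection, with hearts taken 72 h later. The labels do not state that each library is from a separate animal. Untreated hearts were not analysed here, so nothing below measures a response to the drug. The age of the mice is not given in the sources used here, and the deletion is not restricted to heart muscle. The labels' title concerns anthracycline cardiotoxicity, and the question addressed is whether the loss of p38δ alters the cardiac transcriptome of treated animals.

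The respiratory chain passes electrons from NADH through complex I, or from succinate through complex II, to ubiquinone, then through complex III and cytochrome c to complex IV, where oxygen is reduced. Complexes I, III and IV pump protons across the inner mitochondrial membrane, and complex V, the ATP synthase, uses their return to make ATP. Heart muscle depends on this pathway for most of its ATP, and doxorubicin, an anthracycline used against cancer, is limited in use by damage to heart muscle in which mitochondria are known to be involved. All subunits of complex II and most subunits of the other complexes are encoded in the nucleus, and several complex IV subunits exist as a widely expressed form and a form enriched in heart and skeletal muscle.

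Promoter sequences are shown for some of the members named below, namely certain widely expressed and muscle-enriched forms of complex IV subunits and the complex I gene Ndufb10. RefSeq promoter sequences of the GRCm38.p6 build matched 63 of the 98 genes, in 65 windows, and the 250 bases before each transcription start were searched on both strands. The motifs were the nuclear respiratory factor motif NRF1 (GCGCA and GCGC separated by 1 base of any kind, which can match both strands at the same place), the ETS motif (CCGGAAG), the GC box (GGGCGG) and the CCAAT box (CCAAT). The NRF1 motif was present in 11 of the 65 windows, or 16.9%, against 3.74% of 32851 windows of the whole table. The ETS motif was present in 10 windows, or 15.4%, against 6.91% of all windows. The GC box was present in 41.5% against 32.7%, and the CCAAT box in 38.5% against 33.8%. Each sequence below runs 5′ to 3′ towards the start of the gene, and capitals mark the motifs on either strand.
Cox6a1, widely expressed form (chr5:115348959-115349208, minus strand): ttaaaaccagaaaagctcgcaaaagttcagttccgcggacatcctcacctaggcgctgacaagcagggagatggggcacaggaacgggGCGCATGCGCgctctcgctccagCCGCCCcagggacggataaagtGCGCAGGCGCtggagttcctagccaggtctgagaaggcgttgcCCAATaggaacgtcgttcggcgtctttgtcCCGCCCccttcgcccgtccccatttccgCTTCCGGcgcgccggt
Cox7a1, muscle-enriched form (chr7:30183921-30184170, plus strand): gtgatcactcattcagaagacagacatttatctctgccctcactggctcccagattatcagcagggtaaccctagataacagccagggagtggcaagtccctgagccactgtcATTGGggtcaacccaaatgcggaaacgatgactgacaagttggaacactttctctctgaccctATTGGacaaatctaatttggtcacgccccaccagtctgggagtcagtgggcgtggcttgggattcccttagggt
Cox8a, widely expressed form (chr19:7217617-7217866, minus strand): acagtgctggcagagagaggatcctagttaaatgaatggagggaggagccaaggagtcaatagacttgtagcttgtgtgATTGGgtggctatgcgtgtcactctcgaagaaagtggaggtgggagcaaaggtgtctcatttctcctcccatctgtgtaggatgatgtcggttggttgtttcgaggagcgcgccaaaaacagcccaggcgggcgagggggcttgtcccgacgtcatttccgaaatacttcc
Cox8b, muscle-enriched form (chr7:140900447-140900696, minus strand): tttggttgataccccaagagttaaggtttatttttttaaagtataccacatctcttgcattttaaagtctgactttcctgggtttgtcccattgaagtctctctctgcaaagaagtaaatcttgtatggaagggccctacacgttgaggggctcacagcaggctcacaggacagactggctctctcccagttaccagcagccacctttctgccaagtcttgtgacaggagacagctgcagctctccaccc
Ndufb10 (chr17:24724424-24724673, minus strand): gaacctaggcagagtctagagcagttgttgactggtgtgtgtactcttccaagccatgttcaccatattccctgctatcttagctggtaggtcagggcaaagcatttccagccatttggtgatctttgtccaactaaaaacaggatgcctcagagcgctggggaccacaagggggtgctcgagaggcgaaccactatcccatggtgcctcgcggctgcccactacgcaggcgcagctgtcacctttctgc
The Cox6a1 window held all of the searched motifs, with the NRF1 motif at 2 places. The Cox7a1 window held 2 CCAAT boxes on the strand opposite the gene and none of the other motifs, and the Cox8a window held 1 CCAAT box. None of the searched motifs was found in the Cox8b or Ndufb10 windows, which says only that these letters were not in those 250 bases.

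Library totals ranged from 21403189 to 33477767 counts in the KO-labelled and from 22082289 to 40627138 in the WT-labelled group. Mapk13 held 9 to 15 counts in the KO-labelled libraries, against 292 counts in WT-labelled library 1 and 1 to 5 in the other WT-labelled libraries, so it did not check the labels. WT-labelled library 1 stood apart. It held airway and lung epithelium markers at a summed 1061 CPM (counts scaled by TMM to a common library size), against at most 3.87 CPM in the KO-labelled libraries and at most 91.0 CPM in the other WT-labelled libraries. Its atrial markers summed to 1573 CPM, against 148 to 223 CPM in KO-labelled and 153 to 435 CPM in the other WT-labelled libraries. Fast skeletal muscle markers stood at 741 CPM in that library and at no more than 14.2 CPM in any other. Ventricular cardiomyocyte markers were abundant in all 10 libraries, as the labelled tissue implies, at 30235 to 66478 CPM in KO-labelled and 22693 to 51387 CPM in WT-labelled hearts. The lowest of these sums was in WT-labelled library 1 and the highest in KO-labelled library 4. In the former, each marker except Myh6, Ckm and Actc1 was the lowest of the 10 libraries. In the latter, each except Tnnt2 and Pln was the highest of the KO-labelled libraries. Results are therefore given with all 10 libraries and without these 2.

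With all 10 libraries, no respiratory chain gene passed the test between KO-labelled and WT-labelled hearts. Of the 98 genes, 94 had enough counts to be tested, each with at least 26 counts in every library. The edgeR quasi-likelihood test with Benjamini-Hochberg adjustment over 16700 genes called 0 of these 94, while 59 genes, or 0.353%, were called over the whole table. DESeq2 also called 0 of the 94, against 0.718% of all genes, and limma voom with quality weights 0, against 0.527%. Before adjustment, 2 members had p under 0.05 by edgeR, against 6.86% of all genes. The KO-labelled and WT-labelled libraries overlapped in CPM for each of the 94 genes, where 1.78% of all tested genes did not overlap. The 4 untested members were Ndufb11b and Cox8c, with 0 counts, Cox7b2, with 14 counts over the 10 libraries, and a second Atp5po gene (ENSMUSG00000116933), with 5.

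The fitted changes were small in every complex. The median log2 fold change, KO-labelled over WT-labelled, was 0.08 in complex I, 0.07 in complex II, 0.04 in complex III, 0.03 in complex IV, 0.07 in complex V and 0.06 among the assembly and associated genes. Over all 94 genes it was 0.06, with 74 fitted values above 0 and 20 below, against a median of -0.01 over all tested genes. The median standard error of a single member was 0.16. It is not the error of these medians, which were not tested. The fitted values ranged from -0.26 for Ndufb10 to 0.60 for Cox6b2.

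WT-labelled library 1 held the lowest WT-labelled and KO-labelled library 4 the highest KO-labelled summed level of the subunits. Leaving out both, which by itself moves fold changes towards lower values in KO-labelled hearts, turned the direction of all of the medians above. They became -0.10 in complex I, -0.13 in complex II, -0.11 in complex III, -0.07 in complex IV, -0.09 in complex V and -0.09 among the assembly and associated genes. Of the 94 fitted values, 18 were then above 0 and 76 below, and 58 had changed sign. The median over all 16494 genes tested was then 0.00, and that over the 94 members -0.09. Other lists moved in different directions. Medians rose from -1.25 to -0.81 for mesothelium, from -0.22 to -0.07 for fibroblast and from -0.72 to 0.01 for macrophage markers. That of endothelium markers was 0.15 with 10 libraries and 0.13 with 8. The 12 ventricular cardiomyocyte markers had a median log2 fold change of 0.14 with 10 libraries, all 12 above 0, and of -0.23 with 8, where 1 was above 0. In the 8 libraries, mesothelium markers summed to 20.9 to 33.4 CPM in KO-labelled and 41.2 to 55.7 CPM in WT-labelled hearts, and 1 of the 10, Upk3b, was called. Fibroblast markers summed there to 695 to 768 CPM in KO-labelled and 789 to 956 CPM in WT-labelled hearts. The sums of neither list overlapped between groups. Most of the fibroblast sum was Dcn, at 552 to 593 CPM in KO-labelled and 631 to 747 CPM in WT-labelled libraries. Of the 8 fibroblast markers, 3 had fitted values above 0 in these libraries. The share of all genes that did not overlap in the 8 libraries was not counted. With 10 libraries the mesothelium and fibroblast sums both overlapped between groups through KO-labelled library 4, at 41.7 and 829 CPM. The lowest WT-labelled sums were 41.2 and 789 CPM. When all 10 libraries were scaled to the ventricular cardiomyocyte markers, the members' median was -0.01, with 42 fitted values above 0 and 52 below, while that of all tested genes was -0.14. Leaving out WT-labelled library 1 alone gave a median of -0.05 with 60 sign changes, and leaving out KO-labelled library 4 alone gave 0.02 with 20. WT-labelled library 4 was kept in both sets. Leaving it out alone gave a median of 0.16, with 88 of the 94 fitted values above 0. In the 8 libraries, 86 genes of the whole table were called, or 0.521%, and 1 of them was a member, Ndufb10. Before adjustment, 7 of the 94 had p under 0.05 there, against 7.8% of all genes.

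**Figure D1:**
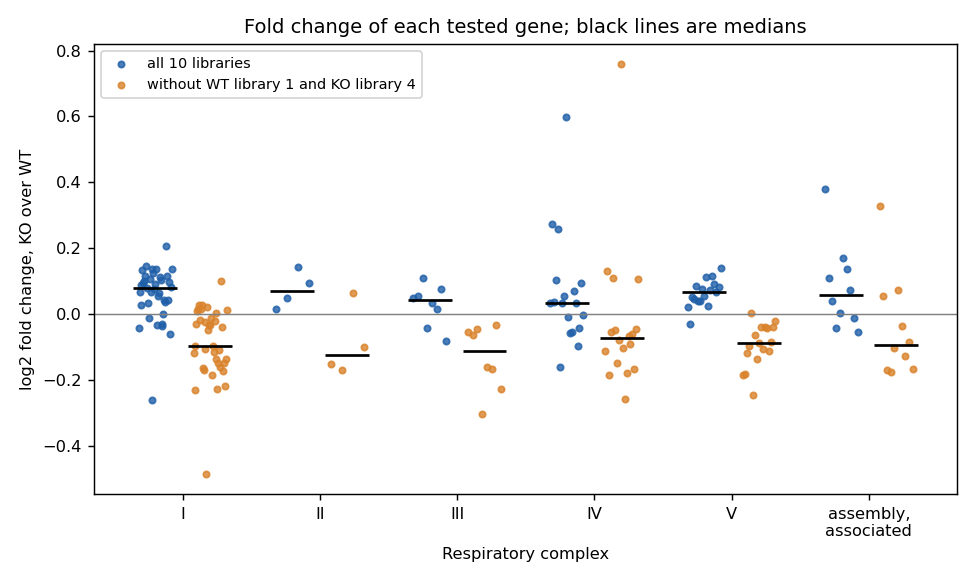
Log2 fold change of each tested gene, KO-labelled over WT-labelled hearts, by respiratory complex, with all 10 libraries in blue and without WT-labelled library 1 and KO-labelled library 4 in orange; each point is a gene and black lines are medians. The medians of all complexes lie above 0 with 10 libraries (0.03 to 0.08) and below 0 with 8 (-0.13 to -0.07).

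The summed level of the 84 tested subunits of complexes I to V varied between libraries, and the directions above rested on which libraries were kept. It was 25179, 20985, 24683, 26759 and 21819 CPM in KO-labelled libraries 1 to 5, and 15015, 23980, 24459, 29032 and 24388 CPM in WT-labelled libraries 1 to 5. WT-labelled library 1 was the lowest of the 10, WT-labelled library 4 the highest, and the other 8 lay between 20985 and 26759 CPM. The group means were 23885 ± 2411 CPM in KO-labelled and 23375 ± 5110 CPM in WT-labelled hearts (SD, n = 5 libraries each). Without KO-labelled library 4 and WT-labelled library 1 they were 23167 ± 2076 and 25465 ± 2388 CPM (n = 4 each). In bulk RNA of a whole heart, fewer cells of a type and less RNA per cell cannot be told apart.

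WT-labelled library 1 was the lowest library for 88 of the 94 members, 80 of them among the 84 subunits. A member stood there at a median log2 difference of -0.74 from the mean of the other WT-labelled libraries. The size of this difference rested on the scaling, as the TMM factor was 1.302 in that library and 0.922 to 1.008 in the others. Without that factor, the members' geometric mean per tested count was still lowest there. Relative to its average over the libraries it was 0.876 there, against 0.917 to 1.156 in the others. The 6 exceptions were the complex IV genes Cox6a1, Cox6b2, Cox8a and Ndufa4l2 and the complex I assembly factors Ndufaf7 and Ndufaf8. The sum of ventricular cardiomyocyte markers was also lowest in that library, and the sums of airway, atrial and fast skeletal muscle markers highest. Macrophage markers stood there at 785 CPM, against at most 226 CPM in KO-labelled and 261 CPM in the other WT-labelled libraries, and fibroblast markers at 1605 CPM, against at most 829 and 956 CPM. Mesothelium markers stood at 169 CPM, against at most 41.7 and 55.7 CPM, and white fat markers at 1519 CPM, against at most 1257 and 1042 CPM. The part of these other cell types in the members' levels was not tested. The highest value of a member was in WT-labelled library 4 for 48 genes, in KO-labelled library 1 for 22 and in KO-labelled library 4 for 19.

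**Figure D2:**
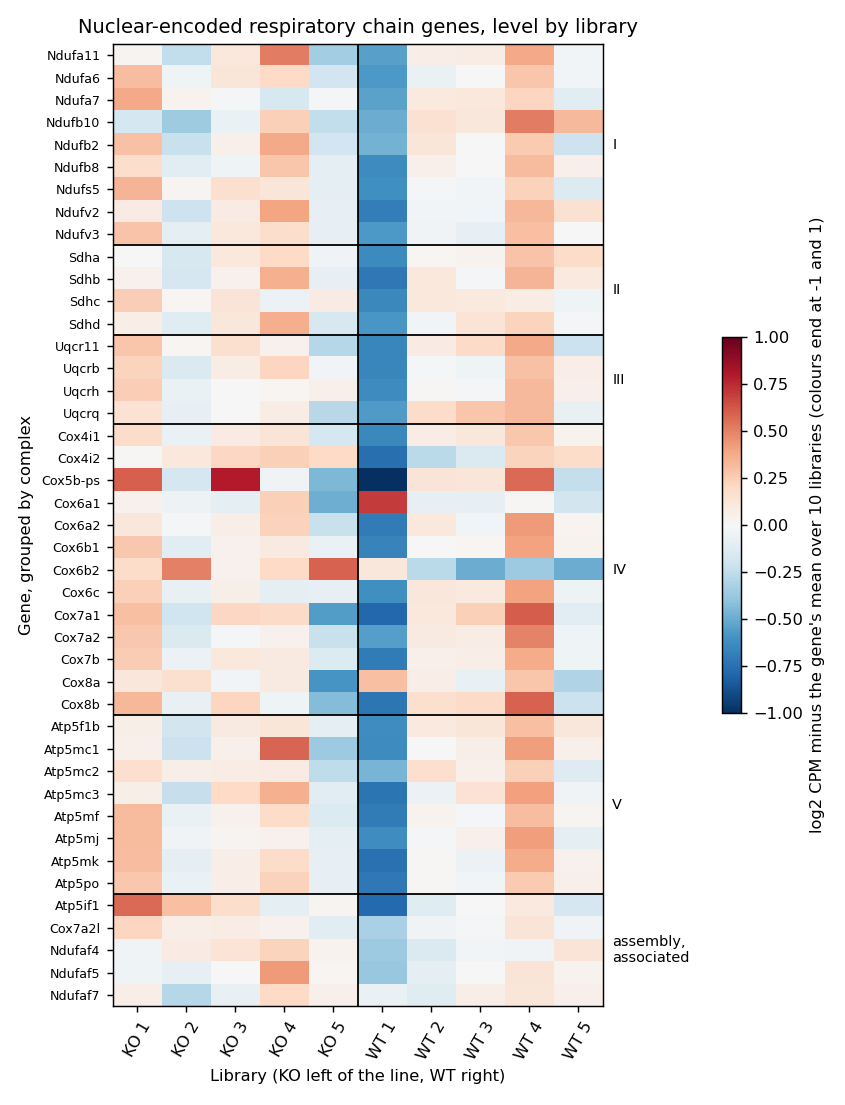
Level of 43 of the 94 tested genes, those named by rule (down), in each library (across, KO-labelled left of the line and WT-labelled right), as log2 CPM minus the gene's mean over 10 libraries, grouped by complex. WT-labelled library 1 is the lowest for 39 of the 43 genes, with Cox6a1 and Cox8a highest there.

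The subunits of the 5 complexes moved together from library to library. Across the 10 libraries the median Pearson correlation of log2 CPM, after each group's mean was subtracted, between pairs of the 84 subunits was 0.89, and 0.78 without WT-labelled library 1 and KO-labelled library 4. For 7844 tested genes with a mean of at least 10 CPM it was 0.02 and 0.01, and for the 10 assembly and associated genes 0.59 and 0.23. These correlations describe the same libraries and share their depth and scaling. Low levels in WT-labelled library 1 were also seen in related lists, for which no correlation was computed. Citric acid cycle genes summed there to 5649 CPM, against 7886 to 10453 CPM in the other libraries. Mitochondrial ribosome genes summed there to 1451 CPM, against 1756 to 2241 CPM. Complex I made up 23.1 to 23.7% of the summed CPM of the 5 complexes in KO-labelled and 23.3 to 23.7% in WT-labelled hearts, and complex V 42.2 to 44.0% and 42.9 to 43.6%. Complex IV varied most, from 13.7 to 15.7% in KO-labelled and from 13.8 to 15.2% in WT-labelled hearts. The coefficient of variation of a member over the 10 libraries had a median of 17.7%, against 11.2% for genes with a mean of at least 10 CPM, and 12.03% against 8.52% without the 2 libraries. Among single members it was smallest for Ndufaf7, Cox7a2l and Ndufaf4 and largest for Cox5b-ps, at 37.5%.

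**Figure D3:**
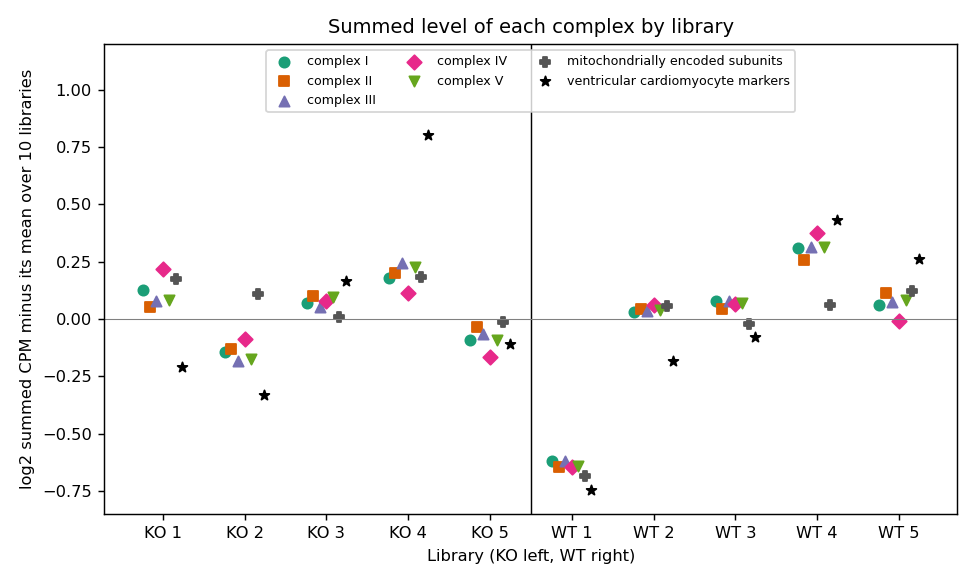
Summed CPM of each complex in each library (KO-labelled left, WT-labelled right), on a log2 scale relative to its mean over 10 libraries, with mitochondrially encoded subunits and ventricular cardiomyocyte markers for comparison. The 5 complexes lie close together in each library and all lie below -0.6 in WT-labelled library 1.

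The 13 subunits encoded in mitochondrial DNA followed the nuclear ones only in part. They summed to 277051 to 317605 CPM in KO-labelled hearts, against 174080 CPM in WT-labelled library 1 and 275146 to 304626 CPM in the other WT-labelled libraries. Their sum was 12.6 ± 1.14 times that of the nuclear subunits in KO-labelled and 11.5 ± 0.939 times in WT-labelled hearts (SD, n = 5 each), and the groups overlapped. Thus the low sum of WT-labelled library 1 was seen for both sets of genes, while WT-labelled library 4, highest for the nuclear subunits, was not highest for the mitochondrially encoded ones.

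Levels of different members were compared as mean CPM per kilobase over the 10 libraries, and their order rested in part on the length used. Sdhb was the lowest of the 4 complex II genes under each of the 3 length choices (canonical transcript, union of exons and coding sequence), at 82.7 per kilobase of canonical transcript. In complex I the highest gene was Ndufb8 at 295 on the canonical transcript, Ndufb10 at 152 on the union of exons and Ndufa3 at 425 on the coding sequence. In complex III, Uqcrb was highest on the canonical transcript, at 429, and Uqcrh on the coding sequence, at 1258. In complex IV, Cox6c was highest on the canonical transcript and the coding sequence, at 885 and 1952, and Cox6a2 on the union of exons, at 517. The median of the 10 assembly and associated genes was 7.15 per kilobase of canonical transcript, against 107 in complex I and 226 in complex V, although Atp5if1 among them stood at 106.

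In complex I, none of 37 tested genes passed the test, and 30 of the fitted values were above 0. Ndufv1, Ndufv2 and Ndufs1 carry the flavin and iron-sulphur centres that oxidise NADH, and their log2 fold changes were -0.06 ± 0.16, 0.08 ± 0.17 and -0.04 ± 0.18 (SE). Ndufs3, Ndufs7 and Ndufs8, which encode core proteins of the ubiquinone-reducing part, had 0.04 ± 0.15, 0.04 ± 0.17 and 0.10 ± 0.17. The smallest p among genes with a higher fitted value was that of Ndufs5, an accessory subunit of the membrane arm, at 64.4 ± 7.31 CPM in KO-labelled and 55.9 ± 11.2 CPM in WT-labelled hearts (log2 fold change 0.21 ± 0.14, adjusted p = 0.768 by edgeR). Ndufa6, which belongs to the LYR motif proteins and sits beside the ubiquinone-reducing part, had 0.15 ± 0.14 (adjusted p = 0.849).

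Ndufb10 (ENSMUSG00000040048, GRCm39 chromosome 17, 24941032 to 24943453, minus strand), an accessory subunit of the distal membrane arm of complex I, was the member with the lowest fitted value. It stood at 162, 142, 174, 215 and 154 CPM in KO-labelled libraries 1 to 5, against 129, 202, 197, 259.9 and 227 CPM in WT-labelled libraries 1 to 5. All KO-labelled libraries except library 4 lay below WT-labelled libraries 2 to 5, while WT-labelled library 1 was the lowest of all 10. With all libraries its log2 fold change was -0.26 ± 0.17 (SE), which did not pass the test (adjusted p = 0.766 by edgeR).

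Without WT-labelled library 1 and KO-labelled library 4, Ndufb10 was called lower in KO-labelled hearts, at 158 ± 13.5 CPM against 222 ± 28.8 CPM (SD, n = 4 each). The libraries left out held its lowest WT-labelled and its highest KO-labelled value, so leaving them out by itself moves the fitted change down. The log2 fold change was -0.49 ± 0.10 with an adjusted p of 0.0385 by edgeR, and over 22 alternatives the adjusted p ranged from 0.0385 to 0.99996 and the fitted change from -0.49 to -0.16. Genes called lower made up 0.194% of the 16494 tested in those 8 libraries. As a multiple of the members' own scale, Ndufb10 was 1.31, 1.39, 1.52, 1.76 and 1.56 in KO-labelled libraries 1 to 5, against 1.77, 1.83, 1.75, 1.95 and 2.11 in WT-labelled libraries 1 to 5. On that scale, 0.808% of all tested genes did not overlap between groups. Here, where each library is divided by the common level of the respiratory chain genes, WT-labelled library 1 lay among the other WT-labelled libraries, and the groups overlapped only through KO-labelled library 4 and WT-labelled library 3. Scaled in this way in the edgeR fit, its log2 fold change was -0.32 ± 0.11 (unadjusted p = 0.0123, adjusted p = 0.960), and no member was called, against 0.228% of all genes. With this scaling in the 8 libraries, no member was called either. The lowest adjusted p of a member by edgeR was then 0.211, while 78 of 16494 genes were called.

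Ndufb10 lies 4.05 Mb from Mapk13 on chromosome 17, and 6 other members are on this chromosome. Ndufv3 at 2.75 Mb and Ndufa7 at 5.06 Mb, both accessory subunits of the NADH-oxidising part, had log2 fold changes of 0.14 ± 0.14 and 0.08 ± 0.14 with 10 libraries, and 0.01 and 0.03 with 8. Ndufa11, Ndufv2, Ndufaf7 and Cox7a2l, between 28.0 and 54.8 Mb away, ranged from -0.01 to 0.11 with 10 libraries and from -0.23 to 0.05 with 8. None of these 6 passed the test in either set, and their groups overlapped.

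Complex II, which oxidises succinate, had 4 tested genes with fitted values above 0 and no call. Sdha, the flavoprotein, stood at 1271 ± 122 CPM in KO-labelled and 1257 ± 275 CPM in WT-labelled hearts, with a log2 fold change of 0.02 ± 0.17. Sdhb, the iron-sulphur subunit, had 0.05 ± 0.17. The membrane anchors Sdhc and Sdhd had 0.14 ± 0.14 (adjusted p = 0.850 by edgeR) and 0.09 ± 0.15. Sdhc alone of the 4 kept a fitted value above 0 without the 2 libraries, at 0.06, against -0.10 for Sdhd, -0.15 for Sdha and -0.17 for Sdhb.

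In complex III none of 8 genes passed the test, and 6 fitted values were above 0. Uqcrc1, a core protein, stood at 443, 378, 462, 635 and 424 CPM in KO-labelled libraries 1 to 5, against 304, 491, 499.8, 577 and 539.8 CPM in WT-labelled libraries 1 to 5. KO-labelled library 4 was the highest of all 10 and WT-labelled library 1 the lowest; KO-labelled libraries 1, 2, 3 and 5 lay between them and below WT-labelled libraries 2 to 5. The log2 fold change was -0.04 ± 0.18 with 10 libraries and -0.30 ± 0.09 with 8, where the adjusted p was 0.276 by edgeR. Uqcrb, Uqcrh and Uqcrq, small accessory subunits, had fitted values of 0.11 ± 0.15, 0.07 ± 0.15 and -0.08 ± 0.16. The Rieske protein Uqcrfs1, which passes electrons to cytochrome c1, had 0.01 ± 0.15. All 8 fitted values of complex III were below 0 without the 2 libraries.

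Of the 6 members not lowest in WT-labelled library 1, 4 were in complex IV, which contains forms with different tissue distributions. Of 18 tested genes none was called, and 11 fitted values were above 0. Cox6b2 (ENSMUSG00000051811, GRCm39 chromosome 7, 4754789 to 4756093, minus strand), known as the testis form of subunit VIb, had the smallest p of all members. It stood at 1.89, 2.36, 1.71, 1.91 and 2.52 CPM in KO-labelled libraries 1 to 5, against 1.80, 1.38, 1.18, 1.299 and 1.18 CPM in WT-labelled libraries 1 to 5. WT-labelled library 1 lay within the KO-labelled range and the other WT-labelled libraries below it. The log2 fold change was 0.60 ± 0.19 (unadjusted p = 0.00967, adjusted p = 0.616 by edgeR), and over 22 alternatives it ranged from 0.43 to 0.85 with adjusted p from 0.0915 to 0.99996. The gene was near the lower end of the tested levels.

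The widely expressed Cox6a1 (ENSMUSG00000041697, GRCm39 chromosome 5, 115483701 to 115487050, minus strand), whose promoter held the NRF1 motif at 2 places, stood apart in WT-labelled library 1. It had 12.4, 11.6, 11.2, 14.1 and 8.57 CPM in KO-labelled libraries 1 to 5, against 19.4, 11.4, 11.3, 12.1 and 10.5 CPM in WT-labelled libraries 1 to 5. That library was the highest of the 10, and the remaining 9 overlapped between groups (log2 fold change -0.16 ± 0.18, adjusted p = 0.867 by edgeR). Cox8a, the widely expressed form of subunit VIII, and Ndufa4l2, a paralogue of Ndufa4 known to be induced by low oxygen, were also highest in WT-labelled library 1, at 21.3 and 10.8 CPM. Their KO-labelled libraries held 11.5 to 19.3 CPM of Cox8a and 5.51 to 8.76 CPM of Ndufa4l2, and the other WT-labelled libraries 14.1 to 20.9 and 5.90 to 7.33 CPM. The airway and other markers named above were highest in the same library, and their part in these values was not tested.

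**Figure D4:**
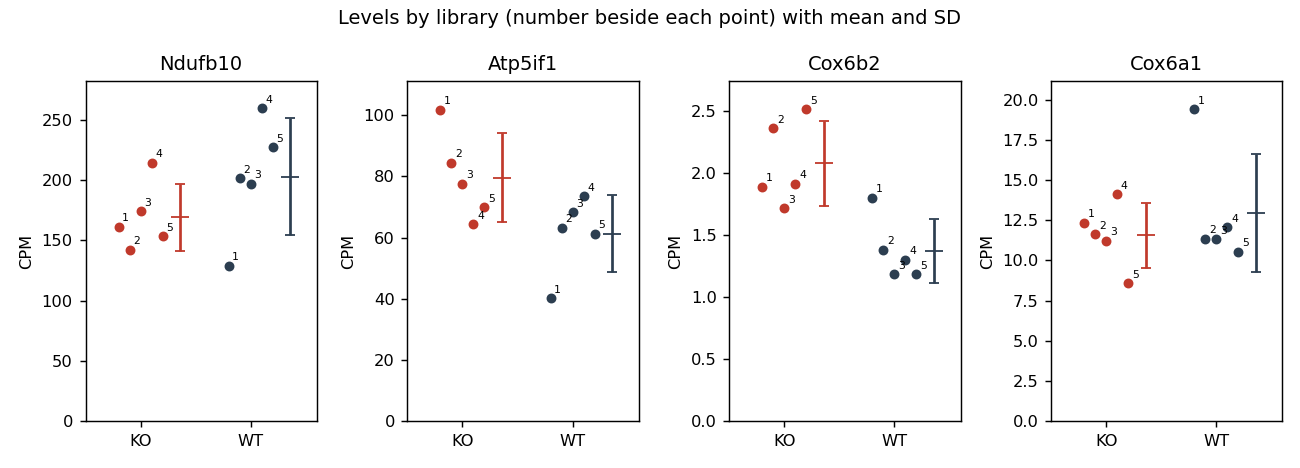
CPM of Ndufb10, Atp5if1, Cox6b2 and Cox6a1 in each library, KO-labelled left and WT-labelled right, with the library number beside each point and the mean and SD of 5 libraries beside each group. WT-labelled library 1 is lowest for Ndufb10 (129 CPM) and Atp5if1 (40.2 CPM) and highest for Cox6a1 (19.4 CPM).

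Ratios between the forms of a subunit remove the scale of a library, and were taken on CPM per kilobase of the canonical transcript. The muscle-enriched Cox6a2 was 26.2 ± 2.04 times Cox6a1 in KO-labelled and 24.6 ± 8.95 times in WT-labelled hearts (SD, n = 5 each). The WT-labelled value was 9.22 in library 1 and 25.3 to 32.5 in the other 4, so the groups overlapped and the wider spread came from that library. The muscle-enriched Cox8b was 1.61 ± 0.238 times Cox8a in KO-labelled and 1.55 ± 0.464 times in WT-labelled hearts, with 0.758 in WT-labelled library 1. Cox7a1, the muscle-enriched form, was 1.35 ± 0.194 times Cox7a2 in KO-labelled and 1.34 ± 0.142 times in WT-labelled hearts. On canonical lengths the muscle-enriched form of these 3 pairs was the higher one in every library, except for Cox8b in WT-labelled library 1.

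The remaining ratios concerned rare forms. Cox4i1, the common form of subunit IV, was 200.03 ± 28.1 times Cox4i2, the form known from lung, in KO-labelled and 237 ± 31.0 times in WT-labelled hearts. Cox4i2 itself was at 3.13 ± 0.195 CPM in KO-labelled and 2.60 ± 0.660 CPM in WT-labelled hearts (log2 fold change 0.27 ± 0.19, adjusted p = 0.774 by edgeR). Cox6b1 was 147 ± 34.2 times Cox6b2 in KO-labelled and 218 ± 72.5 times in WT-labelled hearts, and the groups overlapped through WT-labelled library 1, at 100.2. The 4 other WT-labelled libraries lay between 206 and 292, above the highest KO-labelled value of 183. Absolute ratios rest on the transcript length used. The ratio of Cox7a1 to Cox7a2 over all libraries was 1.35 on canonical transcripts, 7.16 on the union of exons and 1.03 on coding sequence, and that of Cox8b to Cox8a was 1.58, 2.25 and 13.1.

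**Figure D5:**
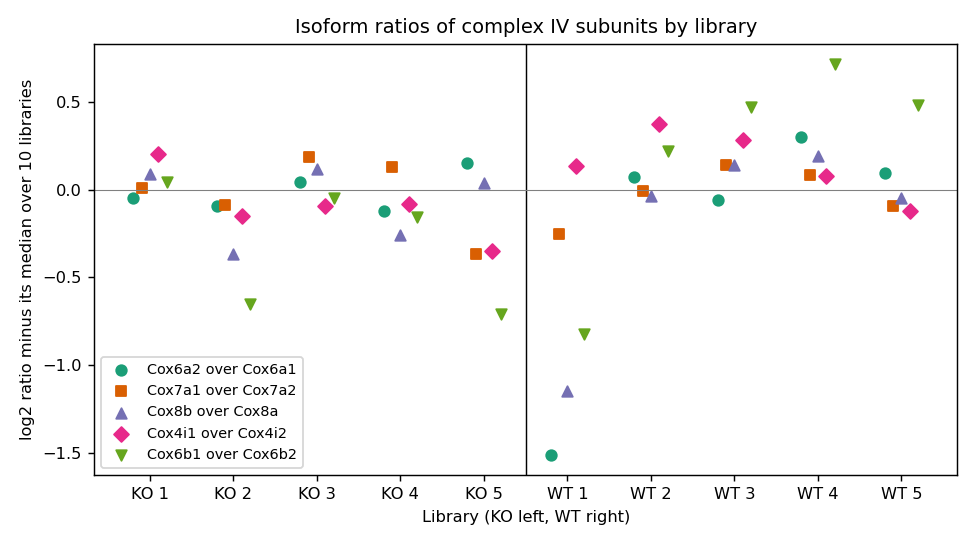
Ratio of paired forms of complex IV subunits in each library (KO-labelled left, WT-labelled right), per canonical transcript length, on a log2 scale relative to the median of 10 libraries. WT-labelled library 1 is lowest for Cox6a2 over Cox6a1 (9.22), Cox8b over Cox8a (0.758) and Cox6b1 over Cox6b2 (100.2).

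In complex V, 16 of 17 fitted values were above 0 and none was called. Atp5f1b, the catalytic beta subunit, was the highest member per kilobase under each of the 3 length choices, at 1665 CPM per kilobase of canonical transcript. It stood at 3174 ± 281 CPM in KO-labelled and 3240 ± 691 CPM in WT-labelled hearts (log2 fold change -0.03 ± 0.17, edgeR adjusted p = 0.982). The peripheral stalk genes Atp5pb, Atp5pd, Atp5pf and Atp5po had fitted values from 0.07 to 0.14, and Atp5mk and Atp5mf, small membrane subunits, had 0.11 ± 0.17 and 0.11 ± 0.16. Without the 2 libraries, 16 of the 17 were below 0.

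The c-ring of the ATP synthase is built from a protein encoded by Atp5mc1, Atp5mc2 and Atp5mc3, which differ in their import sequences. Atp5mc1 stood at 222, 185, 222, 321 and 167 CPM in KO-labelled libraries 1 to 5, against 139, 214, 223, 288 and 223 CPM in WT-labelled libraries 1 to 5. KO-labelled library 4 was the highest of the 10, and the groups overlapped. Per kilobase, Atp5mc1 was 2.65 ± 0.601 times Atp5mc2 in KO-labelled and 2.64 ± 0.320 times in WT-labelled hearts, with 3.69 in KO-labelled library 4. Atp5mc3 was 1.42 ± 0.174 times Atp5mc1 in KO-labelled and 1.35 ± 0.0724 times in WT-labelled hearts.

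KO-labelled library 4 did not move all members alike. Relative to the mean of the other KO-labelled libraries, 73 members were higher there and 21 lower. The largest positive log2 differences were 0.69 for Atp5mc1, 0.62 for Ndufa11, 0.60 for Ndufs8, 0.57 for Uqcrc1 and 0.53 for the assembly factor Ndufaf1. The largest negative ones were -0.38 for Atp5if1, -0.32 for Cox5b-ps, -0.27 for Ndufa3 and -0.26 for Ndufa7. Across the 94 members these differences had a Pearson correlation of 0.27 with log2 transcript length, against 0.07 across 7843 genes with a mean of at least 10 CPM. Ventricular cardiomyocyte markers summed to 66478 CPM in this library, against 30235 to 42723 CPM in the other KO-labelled libraries, and their part in these differences was not tested.

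Among the 10 assembly and associated genes none was called. Atp5if1 (ENSMUSG00000054428, GRCm39 chromosome 4, 132257215 to 132262823, minus strand), which encodes the inhibitor that keeps the ATP synthase from running backwards, had the highest fitted value of this group. It stood at 102, 84.4, 77.6, 64.3 and 69.9 CPM in KO-labelled libraries 1 to 5, against 40.2, 63.2, 68.4, 73.5 and 61.3 CPM in WT-labelled libraries 1 to 5. KO-labelled libraries 1 to 3 lay above all WT-labelled libraries, and KO-labelled libraries 4 and 5 lay among them. The log2 fold change was 0.38 ± 0.16 (unadjusted p = 0.0406, adjusted p = 0.714 by edgeR). Without the 2 libraries it was 0.33 ± 0.10 with an adjusted p of 0.363, and over 22 alternatives the fitted value stayed between 0.26 and 0.45 with adjusted p from 0.236 to 0.99996.

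The other associated genes varied less. Cox7a2l, which links complexes III and IV into supercomplexes, stood at 134 ± 10.9 CPM in KO-labelled and 124 ± 13.6 CPM in WT-labelled hearts (log2 fold change 0.11 ± 0.09, adjusted p = 0.825 by edgeR). Ndufaf4, a complex I assembly factor, had 45.4 ± 3.16 CPM in KO-labelled and 40.3 ± 4.96 CPM in WT-labelled hearts (0.17 ± 0.09, adjusted p = 0.740). The other 7 complex I assembly factors, among them Ndufaf1, Ndufaf2 and Ndufaf7, had fitted values from -0.06 to 0.14.

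Genes outside the symbol rule that serve the same pathway gave no call either. Of 53 tested assembly factors with other names, 0 were called and 35 fitted values were above 0, with a median of 0.07 with 10 libraries and -0.06 with 8. Of 16 genes for mobile carriers and ubiquinone synthesis, a list that also held Cyc1, 11 were above 0, with medians of 0.04 and -0.13. Cyc1, the complex III gene outside the rule, stood at 213 ± 37.5 CPM in KO-labelled and 204 ± 41.6 CPM in WT-labelled hearts. Cycs, which encodes cytochrome c, stood at 438 ± 79.6 CPM in KO-labelled and 437 ± 104 CPM in WT-labelled hearts. The 14 citric acid cycle genes had medians of 0.04 and -0.12, and 75 mitochondrial ribosome genes 0.04 and -0.06. The median of 13 mitochondrially encoded genes was 0.14 with 10 libraries and 0.01 with 8. Regulators of mitochondrial genes had medians of 0.05 and 0.00. Among them Ppargc1a, a coactivator of mitochondrial biogenesis, stood at 147 ± 10.5 CPM in KO-labelled and 139.7 ± 22.3 CPM in WT-labelled hearts (log2 fold change 0.08 ± 0.11, adjusted p = 0.904 by edgeR).

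Some levels are uncertain because other genes carry nearly the same sequence. RSEM assigns reads with more than a single matching gene by an estimate, and 26 members had a copy of at least 95% identity over at least 200 bases. Ndufb4, a complex I accessory subunit, held 4311 counts over the 10 libraries, while its processed pseudogene Ndufb4c held 18926 and Ndufb4b held 2089. Atp5mg, a membrane subunit of complex V, held 62275 counts and its copy Gm10221 held 17931. Atp5mc2 held 30610 counts, and Gm70834, identical to it over 649 bases, held 4769. The level of Atp5mc2 and its ratio to Atp5mc1 share this uncertainty. Cox5b-ps, annotated as protein coding although named as a pseudogene of Cox5b, held 449 counts against 80415 for Cox5b. Adding copies to their members changed no call.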

How the data were processed

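Bulk RNA of hearts was sequenced in 10 libraries. Alignment used STAR 2.5.2 and the GRCm39 genome, per the labels' protocols, and the submitters' processing notes name RSEM 1.3.0. The authors deposited expected counts per gene for all 10 libraries in 1 table; these values were whole numbers, so none needed rounding. The sources used here give no annotation release, strand setting or batch. Totals of 21403189 to 40627138 counts make genes with low counts the least precise.

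Each identifier was looked up in GENCODE's GRCm39 annotation, which held 78168 of 78298 identifiers; the symbol pattern matched 118 of them, and 18 pseudogenes and 2 long noncoding RNAs were left out. Groups follow the genotype label. The labels name separate samples without stating separate animals, so a p-value here reflects only how these samples vary. Within-group pairs of libraries differed by a chi-square per degree of freedom of 9.47 to 179, more than sampling noise, so none was counted as a duplicate.

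Genes were tested in R 4.3.3 by the edgeR 4.0.16 quasi-likelihood method with TMM scaling, the default filter with a minimum count of 10, robust dispersions, no covariate and Benjamini-Hochberg adjustment at 0.05 over all tested genes. Standard errors are approximations obtained from each log2 fold change and its F statistic. Complexes are described by counts and medians, without a test of the list. Levels of different genes were compared only per kilobase. A copy was a BLAST 2.17.0 match with 95% identity that spanned at least 200 bases and 50% of the other gene. The procedure was tested on simulated counts drawn independently for each gene. These held no library that stood apart and no shared shift of the members, so that test does not cover such features. Alternatives were DESeq2 1.42.0, voom with quality weights in limma 3.58.1, other scalings and filters, members summed with copies, and leaving out libraries. Scaling to the members (also without the 2 libraries), scaling to ventricular cardiomyocyte markers and coding-sequence lengths were chosen after the data were seen.

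The members, gene lists and tests were chosen with earlier results of these data known. Genes were named by rule: in each complex the 3 smallest p and the highest and lowest level per kilobase, all tissue forms, members on the chromosome of Mapk13, members called under any setting, and the 3 largest and 3 smallest coefficients of variation. Other genes named, such as Uqcrc1, Ndufa3, Ndufaf1, Cycs and Ppargc1a, were chosen after their values were seen. Some of the genes are not reported here by name.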

Additional observations from a re-analysis of the deposited data

Results flagged for a closer look

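In 118 groups of 5 libraries, 8 values stood apart from the other 4 of their group, with a gap to the nearest value of more than 0.71 of the group's range. Chance flags about 1 in 20 groups. WT-labelled library 1 accounted for 5 of the 8 and KO-labelled library 4 for 2. In WT-labelled library 1, Atp5f1b, the catalytic beta subunit of the ATP synthase, was at 2060 CPM, with the remaining WT-labelled libraries at 3386 to 3891 CPM. Sdhc, a membrane anchor of complex II, was at 219 CPM there, against 332 to 369 CPM. Cox6a1, the widely expressed form of complex IV subunit VIa, was at 19.4 CPM there, against 10.5 to 12.1 CPM. The mitochondrially encoded subunits summed to 174080 CPM there, against 275146 to 304626 CPM. The ratio of Cox8b to Cox8a per length was 0.758 there, against 1.62 to 1.91. In KO-labelled library 4, the complex I assembly factor Ndufaf5 was at 11.1 CPM, with the remaining KO-labelled libraries at 7.78 to 8.36 CPM, and the ratio of Atp5mc1 to Atp5mc2 per length was 3.69, against 2.16 to 2.56. In KO-labelled library 5, the c-ring gene Atp5mc2 was at 82.6 CPM, with the remaining KO-labelled libraries at 102 to 111 CPM.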

How the results depend on the processing

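No paired analysis was possible because the labels give no pairing between KO-labelled and WT-labelled samples. The count of called genes, 59, became 118 with DESeq2, 38 when libraries were scaled to the members and 25 when scaled to ventricular cardiomyocyte markers, and 47 to 75 when 1 library was left out; other settings gave 51 to 88. Members called were 0 in all of these and 1, Ndufb10, without WT-labelled library 1 and KO-labelled library 4. With 1 library left out, the median log2 fold change ranged from -0.04 to 0.16 in complex I, -0.05 to 0.15 in II, -0.08 to 0.14 in III, -0.06 to 0.16 in IV, -0.05 to 0.17 in V, -0.03 to 0.12 among the assembly and associated genes and -0.05 to 0.16 over all members. The lowest value in each of these ranges came without WT-labelled library 1. The highest came without WT-labelled library 4, except among the assembly and associated genes, where it came without KO-labelled library 5. Quality weights gave a median of -0.05. Library totals alone gave -0.01 for the members while shifting the median of all genes to -0.12, against -0.01 with TMM. The causes were not tested. Ratios of tissue forms moved with the transcript length used, over all libraries, for Cox4i1 to Cox4i2 to 96.2 on the union of exons and for Cox6b1 to Cox6b2 to 99.99. With a median standard error of 0.16, changes of that size on the log2 scale lie within the error of a typical member.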

Other observations

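Relative to the common level of the respiratory chain genes in each library, Atp5if1, the inhibitor of the ATP synthase, varied little among WT-labelled hearts. It was 0.825, 0.827, 0.678, 0.529 and 0.709 in KO-labelled libraries 1 to 5, against 0.550, 0.571, 0.608, 0.552 and 0.568 in WT-labelled libraries 1 to 5. KO-labelled libraries 1, 2, 3 and 5 lay above all WT-labelled libraries and KO-labelled library 4 below all of them. The means were 0.713 ± 0.123 in KO-labelled and 0.570 ± 0.0232 in WT-labelled hearts (SD, n = 5 each). With this scaling the log2 fold change was 0.32 ± 0.13 (unadjusted p = 0.0292, adjusted p = 0.960 by edgeR).

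In KO-labelled library 1, the difference of a member from the other KO-labelled libraries ran with transcript length. Its Pearson correlation with log2 length was -0.33 across the 94 members and -0.37 across 7843 genes with a mean of at least 10 CPM, as a description of this library.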
